A study of Mus musculus with 12 samples.

Results

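The 10 genes described here encode enzymes that build purine and pyrimidine nucleotides from small precursors, or that commit the purine precursor to guanine nucleotides. They were taken as the rows whose Entrez identifier carries the mouse symbol Cad, Umps, Dhodh, Ppat, Gart, Paics, Pfas, Atic, Impdh1 or Impdh2. All 10 were found among 27179 genes, and all 10 passed the filter on low counts that left 13134 genes to test. In cells given doxycycline all 10 were lower than in untreated cells.

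Purine synthesis assembles the ring stepwise on phosphoribosyl pyrophosphate (PRPP) and ends at inosine monophosphate (IMP), which is then turned into adenine or guanine nucleotides. Pyrimidine synthesis builds the ring first, as orotate, and attaches the ribose phosphate afterwards, which gives uridine monophosphate (UMP). Dividing lymphocytes depend on both routes, and drugs that block IMP dehydrogenase, dihydroorotate dehydrogenase or the folate-dependent steps are used against activated lymphocytes or leukemia. The transcription factor Myc is known to bind and activate many of these genes.

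The cells were from ALL101, 1 primary T-cell acute lymphoblastic leukemia (T-ALL) of mice with the transgenes Vav-tTA and TRE-GFP-shIkaros. In this system a transactivator under the Vav promoter, which is active in blood cells, drives GFP together with a short hairpin that silences Ikzf1. That gene encodes Ikaros, a DNA-binding zinc-finger protein of lymphoid cells. The treated mice were leukemic recipients given doxycycline (Dox) for 3 days, which shuts off the hairpin (3 mice, labelled GFPmid), and the control mice were untreated leukemic recipients with the hairpin on (3 mice, labelled GFPhigh). The T-ALL cells were sorted from the spleen in both groups, and the 2 sequencing runs of each mouse were summed. Untreated mouse 3 has INJ in its library name where the others name a sort, which the labels do not explain, and without it 10 of 10 genes still fell. Both groups carry the same transgenes, the GFP label differs between the groups, and a leukemia without the hairpin given doxycycline was not analysed here, so the effects of Ikaros, doxycycline and the GFP level of the cells cannot be told apart. Nothing in the labels says how the recipients were matched. The p-values set the difference between the groups against the spread between recipients of this 1 leukemia, and do not extend to other leukemias. In bulk RNA, fewer cells of a type and less RNA per cell cannot be told apart either.

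The 6 mice had 29904744 to 44949303 counts each, and the 10 genes had 603 to 22479 counts each per mouse. Ikzf1 was at 1438, 1523 and 1495 CPM in doxycycline mice and at 153, 150 and 159 CPM in untreated mice, so the check of the targeted gene matched the labels in 6 of 6 mice. CPM are counts relative to the library total, scaled by trimmed mean of M values (TMM), and before that scaling 1 CPM stood for 29.9 to 44.9 counts in these mice. The T-cell markers summed to 5585 to 5820 CPM in doxycycline mice and 4920 to 4979 CPM in untreated mice, and 5 of 9 rose while 1 fell. Erythroid markers summed to 81.8 to 111 CPM in doxycycline mice and 12.7, 7.11 and 51.8 CPM in untreated mice, and 4 of 7 tested rose. The highest of these untreated values was that of mouse 3, the one with INJ in its library name. Myeloid markers summed to 69.1 to 91.0 CPM in doxycycline mice and 26.1 to 45.8 CPM in untreated mice, with 4 of 9 higher and 3 lower. The B-cell list summed to 252 to 297 CPM in doxycycline mice and 356, 355 and 208 CPM in untreated mice. Nearly all of it was Ighm, while Pax5 was at 0 in all mice. NK-cell markers summed to under 1 CPM in every mouse, and Klra8 was at 0 in all. The part of such cells in the results on the enzymes was not tested. Markers counted here as higher or lower had an edgeR adjusted p under 0.05. By that threshold 24.8% of all tested genes were higher and 25.2% lower.

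The promoters of the genes are shown because the genes moved together and because Ppat and Paics lie head to head. Windows from 250 bases before to 50 bases after an annotated start were available from RefSeq (GRCm38.p6) for 8 of the 10 genes, as 9 windows. Dhodh and Pfas had no entry. The windows were searched for CACGTG, the E-box that Myc and its partner Max bind, which reads the same on both strands. It occurred once each in the windows of Paics, Atic and Impdh2, against 7.15% of all 32851 promoter windows, and starts 203, 7 and 110 bases before the annotated start of those genes. Capitals mark CACGTG in these sequences, each written 5′ to 3′ on the strand of its gene. Cad, with the largest fall, and Ppat, the neighbour of Paics, have none in their windows. Bases of these genes outside the 9 windows were not searched, so a CACGTG there would be missed. The CACGTG in the Paics window also lies inside the gene span of Ppat, more than 50 bases after the Ppat start. The window of Cad is set on an annotated start that lies inside the gene span given further on, which begins at an earlier base, so the bases around that outermost start are covered only in part.
Paics, chr5:76951052-76951351, plus strand: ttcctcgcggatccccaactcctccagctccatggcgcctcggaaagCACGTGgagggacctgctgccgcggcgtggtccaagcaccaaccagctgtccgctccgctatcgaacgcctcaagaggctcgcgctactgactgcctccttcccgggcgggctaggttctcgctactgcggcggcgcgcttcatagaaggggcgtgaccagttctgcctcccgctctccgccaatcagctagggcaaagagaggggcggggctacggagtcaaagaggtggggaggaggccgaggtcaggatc
Ppat, chr5:76951529-76951828, minus strand: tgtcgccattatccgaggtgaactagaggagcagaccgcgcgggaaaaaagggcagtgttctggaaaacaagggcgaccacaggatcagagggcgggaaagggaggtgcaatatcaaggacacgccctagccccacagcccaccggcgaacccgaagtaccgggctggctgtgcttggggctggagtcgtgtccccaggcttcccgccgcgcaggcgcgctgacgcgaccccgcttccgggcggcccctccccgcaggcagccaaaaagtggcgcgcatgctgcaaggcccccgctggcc
Atic, chr1:71556906-71557205, plus strand: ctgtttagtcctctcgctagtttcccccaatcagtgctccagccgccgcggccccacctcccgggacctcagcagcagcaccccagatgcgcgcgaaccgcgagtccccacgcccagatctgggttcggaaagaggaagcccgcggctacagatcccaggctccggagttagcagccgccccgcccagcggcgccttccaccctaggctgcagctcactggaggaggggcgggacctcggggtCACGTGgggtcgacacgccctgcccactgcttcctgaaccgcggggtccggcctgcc
Impdh2, chr9:108560186-108560485, plus strand: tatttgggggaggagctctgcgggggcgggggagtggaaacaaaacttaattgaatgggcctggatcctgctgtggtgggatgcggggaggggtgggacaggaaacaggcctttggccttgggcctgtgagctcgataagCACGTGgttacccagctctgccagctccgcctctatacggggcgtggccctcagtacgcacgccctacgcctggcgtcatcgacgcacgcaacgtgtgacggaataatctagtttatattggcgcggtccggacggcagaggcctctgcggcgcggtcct
Cad, chr5:31054530-31054829, plus strand: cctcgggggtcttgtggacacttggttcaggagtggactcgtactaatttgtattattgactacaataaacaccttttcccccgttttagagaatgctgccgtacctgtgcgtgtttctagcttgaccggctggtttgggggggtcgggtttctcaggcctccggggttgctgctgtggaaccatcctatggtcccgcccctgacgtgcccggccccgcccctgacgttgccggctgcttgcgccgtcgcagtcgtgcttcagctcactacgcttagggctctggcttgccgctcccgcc
The start of Paics lies at 76951302 and that of Ppat at 76951578 on chromosome 5, on opposite strands and 276 bases apart, so the first exons of the genes overlap. CCAAT or its reverse complement, the box bound by NF-Y, was found for Paics, Atic, Impdh2 and Gart, that is 4 of 9 windows, against 37.4% of all windows. TGGGAA or its reverse complement, the core that Ikaros binds, was in 0 of 9 windows, against 25.6% of all windows. These are matches of letters in short windows and say nothing of binding in these cells.

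In the same GRCm38 build the pyrimidine genes are Cad (Entrez 69719, chr5:31054620-31078479), Dhodh (56749, chr8:109593244-109608699) and Umps (22247, chr16:33954782-33967038). The purine ring genes are Ppat (231327, chr5:76913249-76951578), Gart (14450, chr16:91621395-91646972), Pfas (237823, chr11:68985701-69008460), Paics (67054, chr5:76951302-76967509) and Atic (108147, chr1:71557156-71579403). The IMP dehydrogenase genes are Impdh1 (23917, chr6:29200436-29216364) and Impdh2 (23918, chr9:108560436-108565577). Besides Paics and Ppat, 4 genes overlap exons of a neighbour in GENCODE. The antisense gene Gm15964 covers 19.7% of the exon bases of Gart, and the antisense gene Gm15829 covers 6.11% of those of Umps. Ndufaf3 shares 48 exon bases with Impdh2 on the other strand, and the microRNA gene Mir3062 shares 39 with Pfas. Where the counting ignored strand, reads from the bases that Impdh2 shares with Ndufaf3, which has its own row, cannot be assigned. No row was found under the symbols Gm15964 and Gm15829, so reads of those antisense genes could then be counted to Gart and Umps.

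Pyrimidine synthesis was lower at each of its 3 genes after doxycycline. Cad encodes the multifunctional protein that forms carbamoyl phosphate, carbamoyl aspartate and dihydroorotate, the opening steps of the route. It was at 345, 313 and 441 CPM in doxycycline mice and at 652, 677 and 693 CPM in untreated mice. The groups were far apart, with the treated mice more spread than the controls. Cad fell by 0.88 ± 0.12 log2 units, a level 45.6% lower (edgeR adjusted p = 0.00077).

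Dhodh encodes dihydroorotate dehydrogenase, which makes orotate at the inner mitochondrial membrane and passes electrons to ubiquinone. It had 22.6, 19.96 and 26.4 CPM in doxycycline mice and 39.1, 40.6 and 34.2 CPM in untreated mice. Again every treated mouse was below every control mouse. Dhodh fell by 0.72 ± 0.12 log2 units (edgeR adjusted p = 0.0015). Umps, whose product turns orotate into UMP, was at 116, 96.6 and 116 CPM in doxycycline mice and 176, 175 and 169 CPM in untreated mice. The untreated mice lay close together, and the groups did not overlap. Umps fell by 0.67 ± 0.08 log2 units (edgeR adjusted p = 0.00042).

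**Figure D1:**
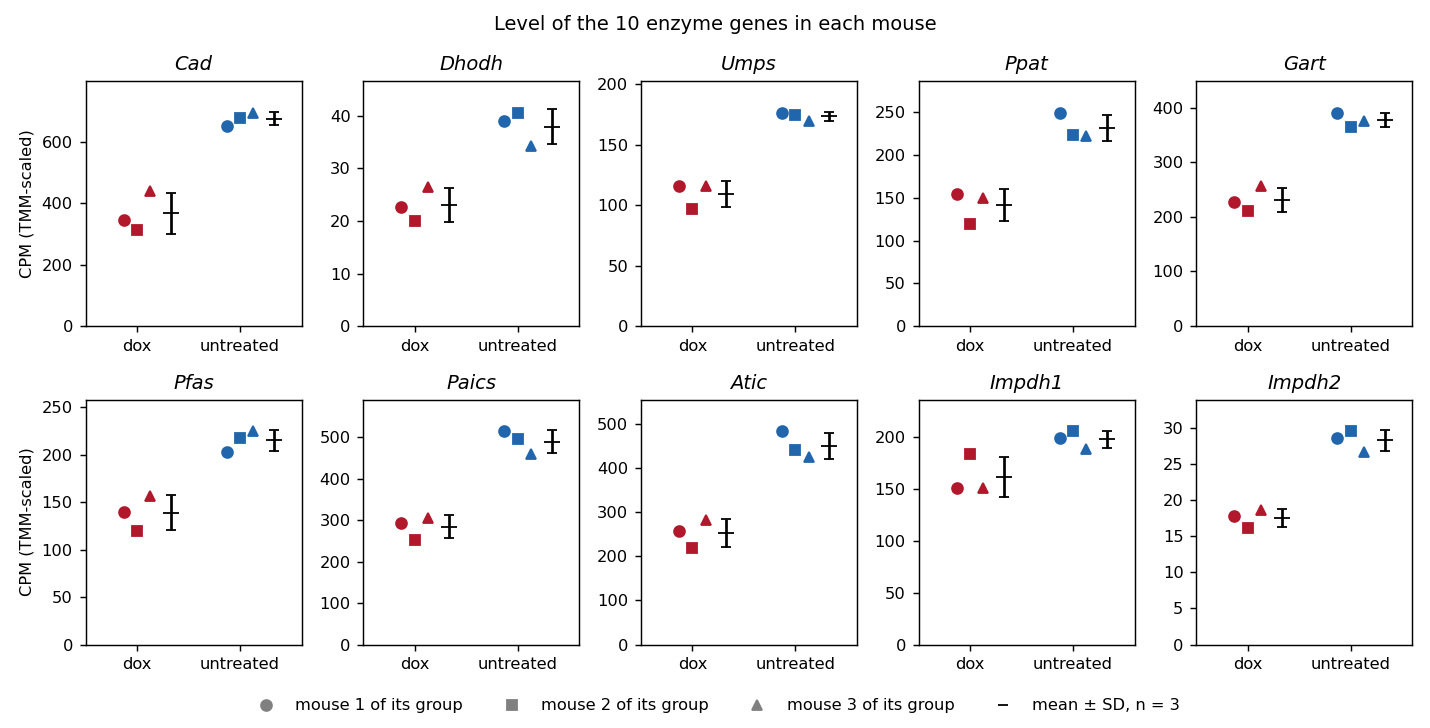
Level of each of the 10 genes in CPM (y axis, from 0, own scale per panel) in the 3 doxycycline mice (left, red) and the 3 untreated mice (right, blue). Symbols are the mice and bars the mean ± SD. In each panel every doxycycline mouse lies below every untreated mouse, and for Impdh1 the gap is small, with 184 CPM in doxycycline mouse 2 and 189 CPM in untreated mouse 3.

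The 5 purine ring genes among the 10 fell by 0.63 to 0.83 log2 units. Adsl, which also acts on the route from PRPP to IMP but is not among the 10, fell by 0.46 ± 0.07 log2 units (edgeR adjusted p = 0.00087). Ppat encodes the amidophosphoribosyltransferase that opens the route and is inhibited by its purine end products. It had 155, 120 and 150 CPM in doxycycline mice and 249, 223 and 222 CPM in untreated mice. It fell by 0.71 ± 0.10 log2 units (edgeR adjusted p = 0.00087). Gart, a multifunctional enzyme that includes a folate-dependent formyl transfer, had 226, 211 and 255 CPM in doxycycline mice and 390, 365 and 376 CPM in untreated mice. It fell by 0.71 ± 0.08 log2 units (edgeR adjusted p = 0.00032).

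Pfas, which uses glutamine to amidate the formylated intermediate, was at 140, 120 and 156 CPM in doxycycline mice and 203, 218 and 224 CPM in untreated mice. Pfas had the smallest fall of the purine ring genes among the 10, 0.63 ± 0.10 log2 units (edgeR adjusted p = 0.0012). Paics, a bifunctional carboxylase and ligase, was at 293, 252 and 306 CPM in doxycycline mice and 514, 495 and 458 CPM in untreated mice. It fell by 0.78 ± 0.09 log2 units (edgeR adjusted p = 0.00029). Atic, which carries out the folate-dependent formylation and the ring closure to IMP, was at 256, 219 and 281 CPM in doxycycline mice and 483, 441 and 426 CPM in untreated mice. Its fall of 0.83 ± 0.10 log2 units was the largest of the purine genes among the 10, each on its own row (edgeR adjusted p = 0.00037).

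Paics and Ppat share their start region, and their levels were compared as a ratio. Per length, Paics stood at 3.20, 3.55 and 3.44 times the level of Ppat in doxycycline mice and 3.47, 3.74 and 3.47 times in untreated mice. The groups overlapped, and the log2 ratio differed by -0.07 between them, about the SD between mice (0.077 in doxycycline and 0.061 in untreated mice). The exact two-sided permutation test gave p = 0.4 (adjusted over the 2 pairs of genes compared, 0.4), which does not show that the ratio was the same. Reads of the shared region cannot be divided between them, since 272 exon bases of one lie over the other on opposite strands and the strand setting of the counting is not given in the sources used here.

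IMP dehydrogenase makes the first committed step toward guanine nucleotides and exists as the isoenzymes Impdh1 and Impdh2. Impdh1 was the gene with the smallest fall. It was at 151, 184 and 150 CPM in doxycycline mice and at 198, 205 and 189 CPM in untreated mice. Doxycycline mouse 2 came close to the lowest untreated mouse, whereas the other treated mice lay well below it. Impdh1 fell by 0.29 ± 0.09 log2 units, a level 18.1% lower (95% interval of the log2 fold change -0.49 to -0.08, edgeR adjusted p = 0.026). This call did not pass when doxycycline mouse 1 or 3, or untreated mouse 1 or 2, was left out (edgeR adjusted p = 0.093, 0.086, 0.067 and 0.088), and the adjusted p ranged from 0.0011 to 0.093 over 19 other settings.

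The row of Impdh2 was low, at 17.7, 16.1 and 18.5 CPM in doxycycline mice and 28.6, 29.5 and 26.6 CPM in untreated mice. It fell by 0.69 ± 0.09 log2 units (edgeR adjusted p = 0.00060), by 0.82 in the first sequencing run alone and by 0.53 in the second alone. A pseudogene row shares sequence with it. Of the 50-base stretches of the longest annotated Impdh2 transcript, 73.9% also occur in the transcript of Impdh2-ps, a processed pseudogene on chromosome 8. The Impdh2-ps row had 199.8, 194 and 237 CPM in doxycycline mice and 409, 402 and 358 CPM in untreated mice. It thus took 91.8% to 92.7% of the counts of both rows in doxycycline mice and 93.1% to 93.5% in untreated mice. Whether those counts come from Impdh2 messenger RNA or from the pseudogene was not tested, and the treatment of reads with several matches is not given in the sources used here.

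**Figure D2:**
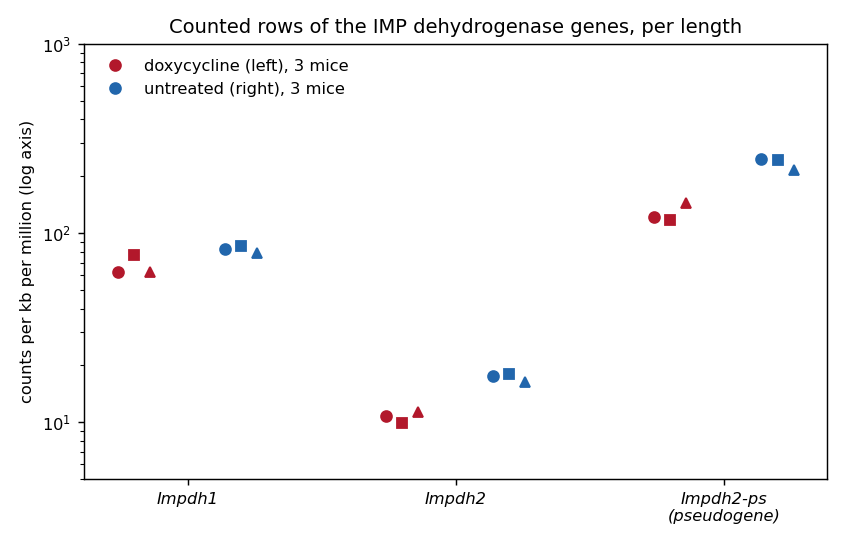
Level per length (RPKM, CPM divided by gene length in kilobases, y axis, log scale) of the Impdh1, Impdh2 and Impdh2-ps rows in doxycycline (red, left) and untreated mice (blue, right), 1 symbol per mouse. The pseudogene row lies above both enzyme rows in every mouse, at 117 to 144 in doxycycline mice and 217 to 248 in untreated mice.

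With both rows summed, which was chosen only once the values were known, Impdh2 plus Impdh2-ps was at 218, 209.96 and 255 CPM in doxycycline mice and 438, 431 and 385 CPM in untreated mice. The sum fell by 0.88 ± 0.09 log2 units (edgeR adjusted p = 0.00022), next to 0.88 ± 0.12 for Cad. Most of this sum is the pseudogene row, so it is a level of Impdh2 only as far as those counts come from Impdh2, which was not tested. The order against Impdh1 depends on which rows are counted. Per length, the Impdh2 row alone stood at 0.174, 0.13 and 0.182 times Impdh1 in doxycycline mice and 0.212, 0.212 and 0.209 times in untreated mice. The summed rows stood at 2.13, 1.69 and 2.51 times Impdh1 in doxycycline mice and 3.25, 3.11 and 3.01 times in untreated mice. With either count the ratio to Impdh1 was lower in every doxycycline mouse than in any untreated mouse. The log2 ratio differed by -0.40 on the Impdh2 row and by -0.59 with the rows summed. The exact two-sided permutation test gave p = 0.1 for both, the smallest that 3 against 3 mice allow (adjusted over the 2 pairs of genes compared, 0.2 for the Impdh2 row). Without doxycycline mouse 2 the difference on the Impdh2 row was -0.25, and in the second run alone it was -0.23.

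**Figure D3:**
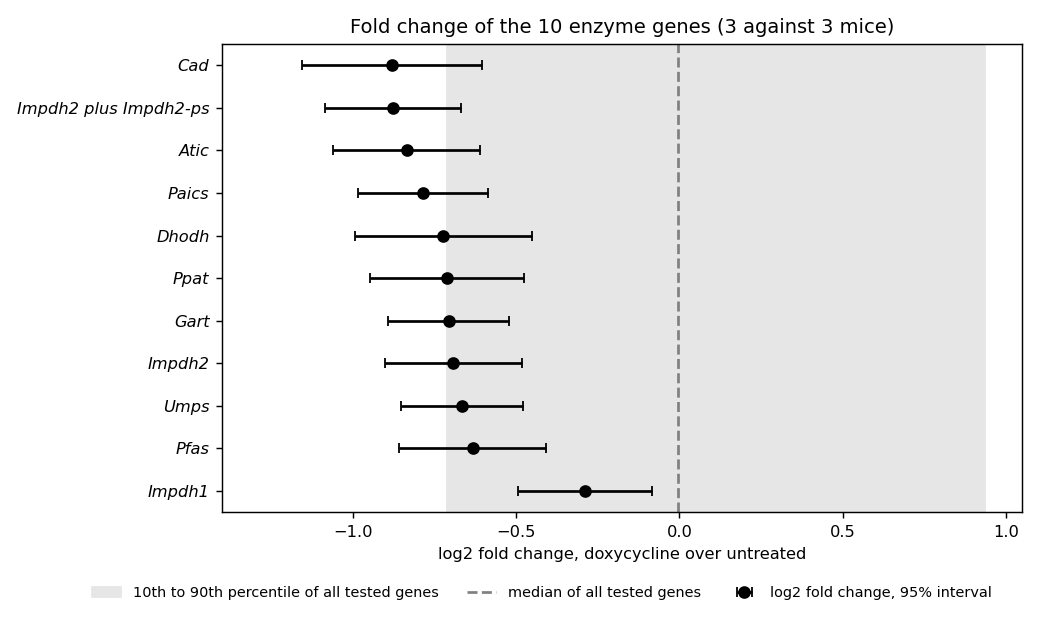
Log2 fold change of doxycycline over untreated (x axis) for each gene, with its 95% interval from edgeR, and for the summed Impdh2 rows. The grey band spans the 10th to the 90th percentile of all 13134 tested genes (-0.71 to 0.94) and the dashed line is their median (-0.0037). All intervals lie below 0, and that of Impdh1 comes nearest to it.

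All 10 genes were lower at an adjusted p under 0.05 in edgeR's quasi-likelihood test, where 25.2% of all tested genes were lower and 24.8% higher. The groups did not overlap for any of the 10, with the doxycycline mice lower, as held for 30.9% of all tested genes. Groups without overlap were higher in doxycycline mice for 30.2% of tested genes, and 61.2% had no overlap in either direction. The median log2 fold change of the 10 genes was -0.71, against -0.0037 over all tested genes. The falls were moderate. None of the 10 reached a 2-fold fall, which 5.87% of tested genes did with an adjusted p under 0.05, while 8.22% had a rise of that size. Between 7.37% (Cad) and 11.8% (Pfas) of all tested genes had a lower log2 fold change than the 9 genes other than Impdh1, and 26.3% had a lower one than Impdh1. Summed over the 10 genes, the level was 1722, 1551 and 1901 CPM in doxycycline mice and 2933, 2868 and 2818 CPM in untreated mice. This sum holds the Impdh2 row alone, without the larger Impdh2-ps row, whose origin was not tested.

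Per length, the order of the genes differed between the groups only in the places of Cad and Impdh1. In doxycycline mice, RPKM averaged 119 ± 11.8 for Paics, 96.6 ± 12.1 for Atic, 69.4 ± 6.76 for Gart, 67.1 ± 7.96 for Impdh1 and 51.6 ± 9.36 for Cad (SD, n = 3). They averaged 206 ± 11.8 for Paics, 172 ± 11.3 for Atic, 113 ± 3.83 for Gart, 81.9 ± 3.43 for Impdh1 and 94.9 ± 2.95 for Cad in untreated mice. Cad was thus below Impdh1 in doxycycline mice and above it in untreated mice, without overlap between the genes in either group, although in doxycycline mice the highest Cad value (62.1 RPKM) and the lowest of Impdh1 (62.5 RPKM) nearly met. Below them came Ppat, at 35.3 ± 4.71 RPKM in doxycycline and 57.8 ± 3.82 RPKM in untreated mice, and Umps, at 33.9 ± 3.41 and 53.8 ± 1.14 RPKM in the same groups. Pfas followed at 21.8 ± 2.89 RPKM in doxycycline and 33.8 ± 1.72 RPKM in untreated mice. Lowest were the Impdh2 row alone, at 10.7 ± 0.747 and 17.3 ± 0.881 RPKM, and Dhodh, at 9.92 ± 1.40 and 16.4 ± 1.44 RPKM in doxycycline and untreated mice. In doxycycline mice, Paics and Atic, Gart and Impdh1, Ppat and Umps, and Impdh2 and Dhodh overlapped as neighbours, and in untreated mice only Impdh2 and Dhodh did.

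Within the doxycycline group the genes other than Impdh1 shared their lowest mouse. Doxycycline mouse 2 was the lowest of its group for 9 of the 10 genes, against 36.7% of all tested genes, and for Impdh1 it was the highest. On the log2 scale, centred on the 6 mice, the mean of the 10 genes was -0.33, -0.49 and -0.22 in doxycycline mice and 0.38, 0.36 and 0.30 in untreated mice. Ikzf1 was not lower in doxycycline mouse 2, as given above. Proliferation markers summed to 7186, 6191 and 7438 CPM in doxycycline mice and 7512, 7251 and 7373 CPM in untreated mice, so the same mouse was also lowest there. Of these 12 markers, 5 fell and 0 rose (median log2 fold change -0.24), where 25.2% of all tested genes fell and 24.8% rose. The part of cell division in the fall of the enzymes was not tested. Without doxycycline mouse 2, 10 of 10 enzyme genes still fell. Of the lists described below, that mouse was lowest of its group in the sum of the folate genes (1128, 950 and 1283 CPM in doxycycline mice). The same held for the deoxynucleotide genes (3031, 2493 and 3112 CPM), but not for the PRPP and late-step genes or the salvage genes. In the untreated group, mouse 3 was the lowest for 7 of the 10 enzyme genes, against 40.6% of all tested genes.

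**Figure D4:**
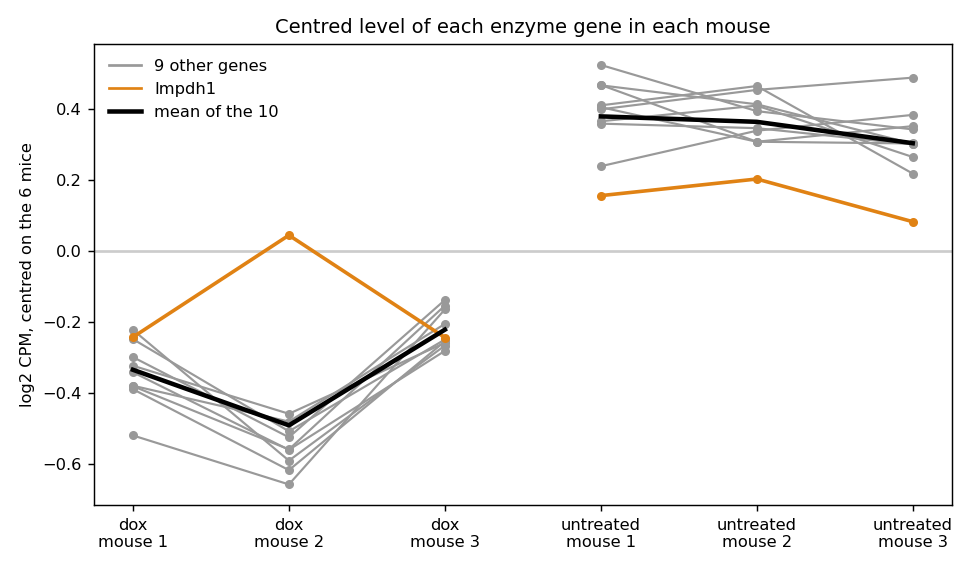
Log2 CPM of each gene centred on its mean over the 6 mice (y axis) in doxycycline mice (left) and untreated mice (right). Grey lines are 9 genes, the orange line is Impdh1 and the black line the mean of the 10. Doxycycline mouse 2 is the lowest point of every grey line and the highest doxycycline point of Impdh1.

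Myc, the regulator named above, was at 113, 151 and 172 CPM in doxycycline mice and 363, 340 and 392 CPM in untreated mice. It fell by 1.33 ± 0.15 log2 units (edgeR adjusted p = 0.00044), and doxycycline mouse 2 was not its lowest mouse. The part of Myc in the fall of the enzymes was not tested. The genes outside all lists whose centred profile lay nearest to the mean of the 10 genes over the 6 mice were Cops7a, Eprs, Get1, Mettl1 and Fh1, with root mean square differences of 0.017 to 0.033 log2 units. Genes without a symbol or with a provisional one, such as Gm or Rik names, were left out of that search. Among the 10 genes themselves this difference ran from 0.033 for Impdh2 to 0.26 for Impdh1. The outside genes were picked for the smallest difference, and the 10 genes make up the mean, so these ranges cannot be compared.

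Most genes of the neighbouring steps were lower too. Of 13 further genes of PRPP supply and of the steps after IMP and UMP, 10 fell and 1 rose. Over all tested genes, 25.2% fell and 24.8% rose. The log2 fold changes of the 13 genes had a median of -0.36. Adsl, adenylosuccinate lyase, which acts both before and after IMP, fell to 175 ± 10.7 CPM in doxycycline mice, against 241 ± 4.85 CPM in untreated mice (edgeR adjusted p = 0.00087). Ctps, which makes cytidine triphosphate, fell by 0.57 ± 0.11 log2 units and Prpsap1, a PRPP synthetase-associated protein, by 0.49 ± 0.08 (edgeR adjusted p = 0.0027 and 0.0017). Adssl1, the muscle-type adenylosuccinate synthetase, fell by 1.73 ± 0.18 log2 units at a low level of 2.99 ± 0.325 CPM in doxycycline and 9.94 ± 1.81 CPM in untreated mice (edgeR adjusted p = 0.00023). The 1 gene that rose was Prpsap2, by 0.38 ± 0.11 log2 units (edgeR adjusted p = 0.016), chosen after its value was seen. Without untreated mouse 2, 6 of these genes fell and 0 rose, and without doxycycline mouse 1 none rose and 7 fell.

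Enzymes of folate one-carbon metabolism supply formyl groups to the steps of Gart and Atic. Of 16 tested genes of this kind 10 fell and 2 rose (median log2 fold change -0.43), while Aldh1l2 and Gldc were under the filter. The shares over all tested genes were 25.2% lower and 24.8% higher. Mthfd1, which makes the formyl donor in the cytosol, fell to 196 ± 34.4 CPM in doxycycline mice, against 352 ± 10.5 CPM in untreated mice (edgeR adjusted p = 0.00093). The reduced folate carrier gene Slc19a1 fell by 0.93 ± 0.08 log2 units, the serine hydroxymethyltransferase gene Shmt1 by 0.79 ± 0.09 and Fpgs, which retains folates in the cell, by 0.88 ± 0.12 (edgeR adjusted p = 0.00011, 0.00035 and 0.00060). The genes that rose were Mthfs and Aldh1l1, with log2 fold changes of 1.63 ± 0.29 and 0.61 ± 0.13 (edgeR adjusted p = 0.0021 and 0.0043), named after their values were seen. Without doxycycline mouse 1, untreated mouse 1 or untreated mouse 2, 7 of the 16 fell. Mthfs was at a low level, 3.29, 3.73 and 2.85 CPM in doxycycline mice and 0.838, 0.813 and 1.53 CPM in untreated mice.

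Of 14 tested genes of deoxynucleotide supply, 7 fell and 1 rose (median log2 fold change -0.29). Among all tested genes 25.2% fell and 24.8% rose. Tyms, thymidylate synthase, fell by 0.49 ± 0.07 log2 units, the cytosolic thymidine kinase gene Tk1 by 0.52 ± 0.10 and Nme2, a nucleoside diphosphate kinase, by 0.57 ± 0.11 (edgeR adjusted p = 0.00098, 0.0034 and 0.0035). Tk2, the mitochondrial thymidine kinase, rose to 22.2 ± 0.397 CPM in doxycycline mice, against 14.1 ± 0.421 CPM in untreated mice (edgeR adjusted p = 0.00058). Rrm1 and Rrm2, the subunits of ribonucleotide reductase, had log2 fold changes of -0.23 ± 0.09 and 0.25 ± 0.12 that did not pass (edgeR adjusted p = 0.055 and 0.13), and were looked up after the list was seen. Without doxycycline mouse 2 or 3, 2 genes rose.

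Of 21 tested genes of salvage, interconversion and breakdown 10 fell and 4 rose, where 25.2% of all tested genes fell and 24.8% rose. Their median log2 fold change was -0.25, and Nt5e, Upp1, Cda, Dpyd and Dpys were under the filter. Ampd1, an AMP deaminase best known from muscle, rose 12.9-fold, to 23.1, 36.1 and 20.6 CPM in doxycycline mice, against 1.98, 1.96 and 2.26 CPM in untreated mice (edgeR adjusted p = 5.6e-05). Adk, adenosine kinase, fell by 1.07 ± 0.13 log2 units, and the equilibrative nucleoside transporter genes Slc29a1 and Slc29a3 by 0.88 ± 0.10 and 0.91 ± 0.11 (edgeR adjusted p = 0.00055, 0.00032 and 0.00045). The other AMP deaminase genes differed in direction. On the log2 scale Ampd2 fell by 0.51 ± 0.07 and Ampd3 rose by 0.37 ± 0.09 (edgeR adjusted p = 0.00068 and 0.011), both named after their values were seen. Without untreated mouse 2, 2 genes of this list rose.

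**Figure D5:**
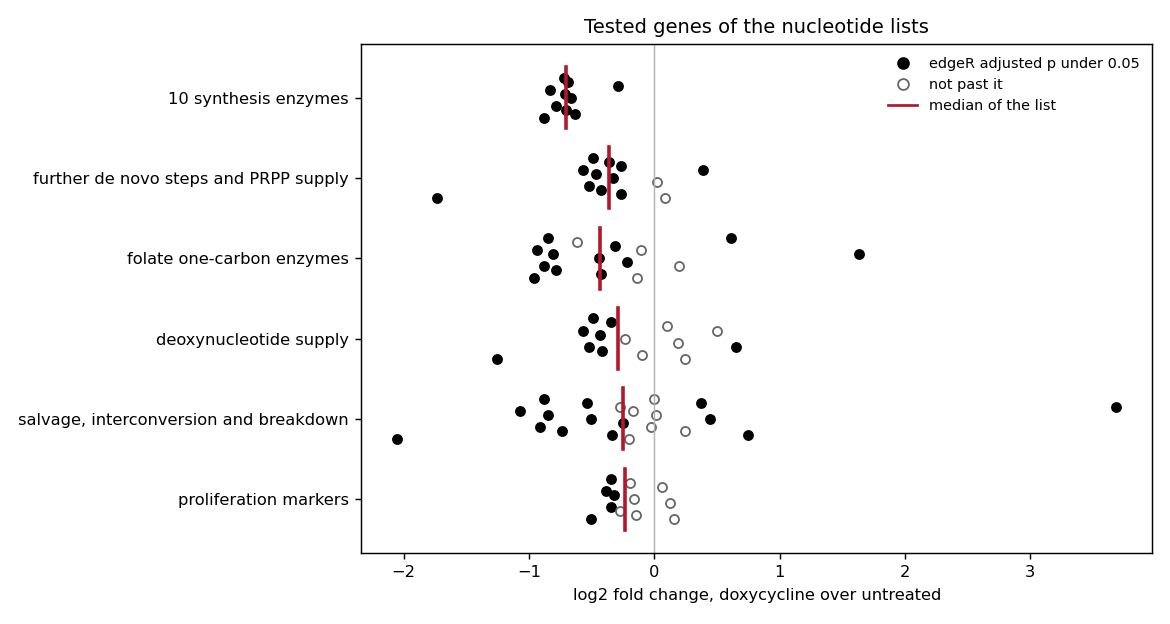
Log2 fold change of doxycycline over untreated (x axis) of each tested gene in the nucleotide lists and in the proliferation markers, 1 point per gene, filled where the edgeR adjusted p is under 0.05, with the median of each list as a red line. Of the 10 synthesis enzymes 9 lie close together around the median of -0.71, with Impdh1 to their right at -0.29, and the medians of the other lists lie between -0.43 and -0.24. The point at 3.69 is Ampd1.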

How the data were processed

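The data are RNA-seq counts of 12 libraries from 6 mice. The authors deposited raw read counts per Entrez gene, with a gene length, and per the submitters' processing notes used CASAVA 1.8.1 and featureCounts with the mm10 build. Aligner, gene annotation, strand setting and handling of reads with several matches: not given in the sources used here. The series table and the library tables held the same counts (0 values differed).

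Here the 2 runs were summed per mouse, since they differed by about the sampling noise (chi-square per degree of freedom 1.01 to 1.03), so n is mice. Symbols came from RefSeq and GENCODE tables of GRCm38 for 25293 of 27179 identifiers. At these totals 1 CPM is 29.9 to 44.9 counts. The comparison used edgeR 4.0.16 under R 4.3.3 over all genes kept by filterByExpr, with TMM factors, robust dispersions, the quasi-likelihood F test and Benjamini-Hochberg adjustment at 0.05. SE is the log2 fold change over the square root of F. RPKM divide TMM-scaled CPM by the deposited gene length.

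The 10 genes and the lists were chosen with earlier results of these data known. Named genes are the 10 members, up to 4 genes with the smallest p per further list, Ikzf1, Myc and the 5 nearest profiles, and others are said to be chosen after their values were seen. Alternatives were other size factors, filters and tests (DESeq2 1.42.0, limma-voom 3.58.1), single runs, a block for the replicate number, and leaving out each mouse. A gene listed as Hbb-bt had no match.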

Additional observations from a re-analysis of the deposited data

How the results depend on the processing

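The 10 enzyme genes kept a negative log2 fold change under all 19 alternatives, and 9 of them, all but Impdh1, stayed past the threshold in each. The number of the 10 that fell was 9 to 10 when each mouse was left out in turn, and 10 in the other settings. The log2 fold change of Cad ran from -1.03 to -0.75, that of Impdh2 from -0.88 (rows summed, added after seeing the data) to -0.53. When each mouse was left out in turn, the further genes of PRPP supply and late steps had 6 to 9 lower and 0 to 1 higher, the folate list 7 to 10 lower and 2 to 3 higher, the salvage list 2 to 4 higher and the deoxynucleotide list 1 to 2 higher. In the deoxynucleotide list 2 genes rose with DESeq2, in the second run alone, and without both doxycycline mouse 2 and untreated mouse 3, a setting added after seeing the data. The cause of these shifts was not tested.

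With the replicate number as a block, 10 of the 10 genes fell (log2 fold change -0.89 for Cad and -0.29 for Impdh1), and 3156 genes were lower and 3103 higher, against 3316 and 3255 without it. The labels do not say that the numbers pair the mice. Same-numbered mice correlated at 0.16, -0.01 and -0.10 in their deviations from the group means, and mice of different number at -0.19 to 0.17. With 3 mice per group these values cannot show whether the recipients were matched. The block was not applied to the ratios, which come from no model fit. Of the 10 genes the Impdh2 row had the fewest counts, 603 to 978 per mouse, and Dhodh had 768 to 1347.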
